A study of Mus musculus with 4 samples.

Results

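Glutathione transferases and targets of the transcription factor NRF2 were examined in C2C12, an established line of mouse myoblasts, held out of the cell cycle. The 10 genes were chosen by symbol (Gsta2, Gsta4, Gstm1, Gstm2, Gstt1, Gsto1, Gclc, Gclm, Nqo1 and Hmox1), out of 12394 genes named on the array, and every probe set that the platform annotation gives to 1 of them alone was read. They were picked with the Wnt3A contrast of these arrays already known, so their differences are given as a description, with no test. All cells were grown with 20% fetal calf serum and brought into G0, a reversible rest from division, by keeping them for 48 hours suspended in methyl cellulose. The control group was taken to be without Wnt3A from its titles, although the protocol text names Wnt3A for these arrays too. The Wnt3A group received the purified secreted ligand Wnt3A at 50 ng/ml over the same time. There were 2 Affymetrix arrays per group, called biological replicates in the labels, which do not say whether the cultures were started apart. The line is immortalised, and suspension culture stands in for the resting state of muscle stem cells, which limits both groups as a model. In RNA from whole cultures, fewer cells of a type and less RNA per cell cannot be told apart.

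Glutathione is the main small thiol of the cell. Its synthesis starts with glutamate-cysteine ligase, and glutathione transferases join it to reactive or foreign compounds. NRF2, encoded by Nfe2l2, is held down by KEAP1 and is released by oxidants and electrophiles. It then binds antioxidant response elements together with small MAF proteins and switches on genes such as Nqo1, Hmox1, Gclc and Gclm, while BACH1 occupies the same elements as a repressor. Several genes of the group also answer to the aryl hydrocarbon receptor, a ligand-activated transcription factor.

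Promoter sequence is shown for the gene with the widest difference upwards (Gsta2), the one with the widest difference downwards (Gstm1), and the only one of the 7 genes with a promoter window at hand that held an antioxidant response element core there (Gclm). The sequences are RefSeq's, of build GRCm38.p6, written 5′ to 3′ along the gene's strand up to the outermost annotated start. Capitals mark the antioxidant response element core TGACNNNGC and the aryl hydrocarbon receptor core GCGTG on either strand.
Gsta2: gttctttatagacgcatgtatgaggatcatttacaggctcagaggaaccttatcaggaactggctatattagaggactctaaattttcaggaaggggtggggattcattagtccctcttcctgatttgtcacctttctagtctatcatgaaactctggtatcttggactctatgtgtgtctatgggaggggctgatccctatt
Gstm1: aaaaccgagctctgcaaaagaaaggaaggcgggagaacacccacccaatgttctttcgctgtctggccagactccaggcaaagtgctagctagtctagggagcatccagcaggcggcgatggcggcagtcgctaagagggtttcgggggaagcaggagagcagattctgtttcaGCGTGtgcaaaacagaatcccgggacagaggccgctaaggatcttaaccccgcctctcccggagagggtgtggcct
Gclm: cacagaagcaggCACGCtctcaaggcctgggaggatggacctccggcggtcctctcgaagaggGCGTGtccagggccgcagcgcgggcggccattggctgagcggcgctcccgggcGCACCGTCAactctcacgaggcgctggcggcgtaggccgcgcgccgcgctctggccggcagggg
The Gsta2 stretch is chr9:78347193-78347395 on the minus strand, the Gstm1 stretch chr3:108017974-108018223 on the minus strand, and the Gclm stretch chr3:122245307-122245486 on the plus strand. Whole windows of 300 bases, from 250 before to 50 after a start, were at hand for 7 of the 10 genes. TGACNNNGC was found in 1 of these 7, against 12.4% of all 32851 windows, and the match in Gclm reads TGACGGTGC on the opposite strand. GCGTG was found in 3 of the 7 (Gsta2, Gstm1 and Gclm), against 32.4% of all windows. The match of Gsta2 lies 7 bases before the start that its window was taken around. The outermost annotated start of Gsta2, where the printed stretch ends, lies upstream of that match. The core bound by TCF and LEF proteins, CTTTGAT, was found in 0 of the 7 and in 3.73% of all windows. The motifs do not overlap one another in the printed stretches. A match is a run of letters, and a window without one says nothing about a factor.

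The 10 genes had 15 probe sets of their own, 7 genes with 1 each, Gclc and Gsto1 with 2 each, and Gstm1 with 4. All 15 had a mean above 2.01, the limit under which the dimmest 25% of probe sets were left out, and none of the 15 read under that limit on any array. Signals are taken as log2 values, since the deposited table does not state its base, and a difference is Wnt3A minus control. Levels of different probe sets are not comparable. Of the 15 probe sets, 4 had a difference above 0 and 11 below 0, with a median of -0.07, beside -0.0037 over all 16969 tested probe sets. In 2 probe sets the Wnt3A arrays were both above the controls, in 5 they lay below both, and in 8 the groups overlapped. Over all tested probe sets the share without overlap was 33.0%, with 15.1% above and 17.9% below. At least 2-fold apart with no overlap were 1 probe set on the higher side (Gsta2) and 3 on the lower side (all of Gstm1), where 1.34% and 1.70% of all tested probe sets met that rule. As this contrast was known when the genes were picked, nothing is read from these shares. For 11 of the 15 probe sets the gap between the arrays of at least 1 group was wider than the difference between the groups. The share of all tested probe sets that met this was not counted, so nothing is read from it. Over all tested probe sets the median absolute difference was 0.19, beside median gaps of 0.24 between the controls and 0.30 between the Wnt3A arrays.

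**Figure D1:**
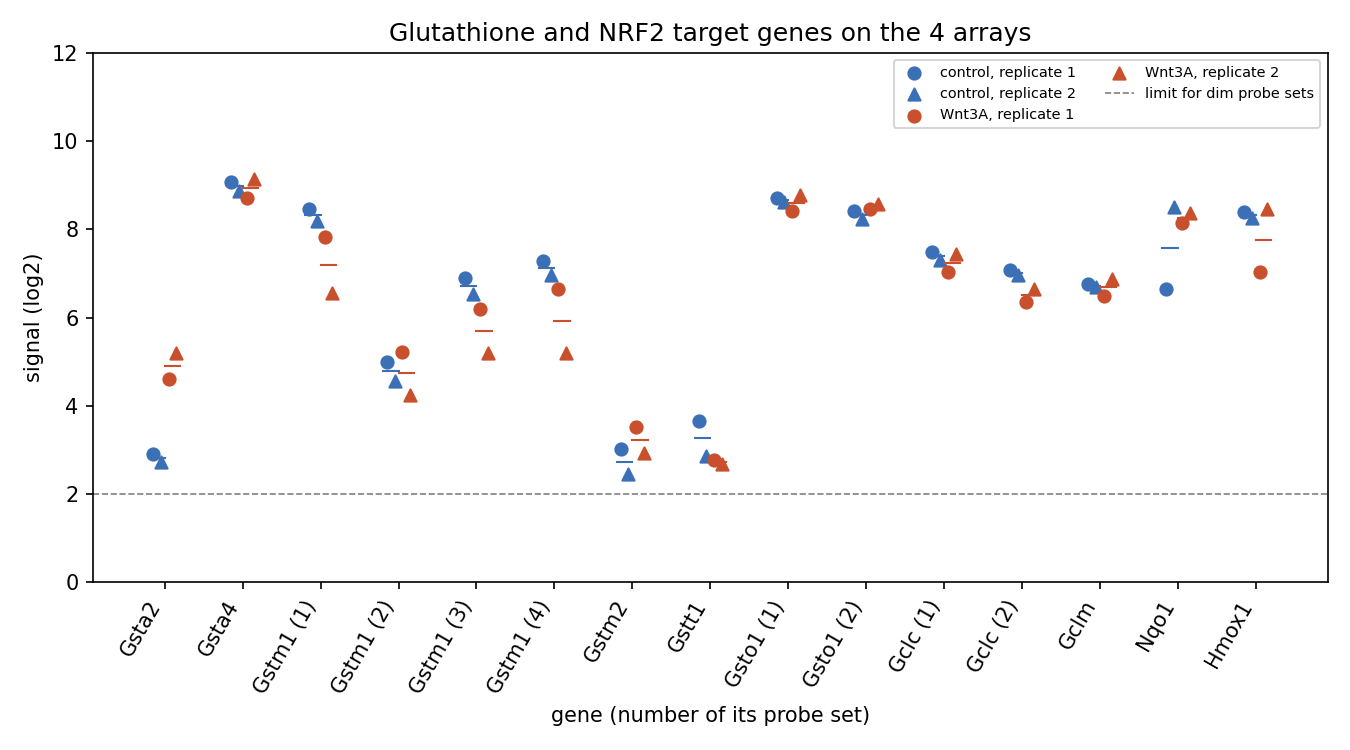
Signal (log2) of each probe set of the 10 genes on each of the 4 arrays, with short bars for group means and a dashed line at the limit for dim probe sets, 2.01; numbers in brackets count the probe sets of a gene in ascending order of their names. Gsta2 stands higher and 3 probe sets of Gstm1 stand lower on both Wnt3A arrays, while Nqo1 has 1 low control array and Hmox1 has 1 low Wnt3A array.

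The alpha class transferase Gsta2, which conjugates glutathione and reduces lipid peroxides, differed most. Its probe set 1421040_a_at read 2.91 and 2.73 on the controls against 4.61 and 5.19 with Wnt3A. Both Wnt3A arrays were far above both controls, with 1.71 between the nearest pair. The means were 2.82 ± 0.13 and 4.90 ± 0.41 (SD, n = 2), a difference of 2.08, or 4.24-fold. Of all tested probe sets, 0.566% were at least as far apart in either direction. The difference ran from 1.80 to 2.37 with 1 array left out. The control signals were not far above the limit for dim probe sets, so the size of the difference rests in part on a low signal. A further probe set, 1421041_s_at, is listed for 3 genes, Gsta2 among them, and belongs to none of them alone. It read 2.60 and 3.26 on the controls against 3.45 and 5.44 with Wnt3A, which differ by 1.51. Its groups did not overlap, but the nearest pair was only 0.19 apart and Wnt3A replicate 2 stood alone at the top. Alpha class genes are close copies, and how far probes of one read another was not tested.

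Gsta4, the alpha class enzyme with a preference for 4-hydroxynonenal, a product of lipid peroxidation, did not follow Gsta2. It read 9.08 and 8.88 on the controls against 8.71 and 9.15 with Wnt3A, so the controls lay between the Wnt3A arrays. The difference was -0.05, and it was 0.27 when arrays were scaled to their hybridization controls.

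Gstm1, the main mu class transferase of many tissues, was lower with Wnt3A on 3 of its 4 probe sets. Probe set 1448330_at read 7.28 and 6.97 on the controls against 6.66 and 5.20 with Wnt3A. Its means were 7.13 ± 0.22 and 5.93 ± 1.03 (SD, n = 2), a difference of -1.20. Both Wnt3A arrays lay below both controls, by 0.31 at the nearest, and Wnt3A replicate 2 was 1.46 below Wnt3A replicate 1. A gap that wide between the Wnt3A arrays was seen in 4.33% of tested probe sets.

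The probe sets 1416416_x_at and 1425627_x_at gave the same order of arrays. The first read 8.45 and 8.19 on the controls against 7.82 and 6.57 with Wnt3A, which differ by -1.13. The second read 6.91 and 6.54 on the controls against 6.20 and 5.20 with Wnt3A, which differ by -1.03. The suffix x marks probe sets with probes that may also read related genes. The remaining one, 1425626_at, read 4.99 and 4.57 on the controls against 5.22 and 4.26 with Wnt3A. Here the Wnt3A arrays lay on either side of the controls and the difference was -0.05, so the probe sets of this gene disagree. Without Wnt3A replicate 2 the differences of the 3 lower probe sets were -0.50, -0.53 and -0.47, and without Wnt3A replicate 1 they were -1.75, -1.53 and -1.93. These 3 probe sets stayed below 0 with any 1 array left out, and the size of the difference follows Wnt3A replicate 2.

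Markers of fat cells were lower with Wnt3A, as were 3 probe sets of Gstm1. Over all tested genes, 14.8% were higher and 19.6% lower without overlap. Of 8 adipocyte markers on the array, 5 were above the limit, and on all 5 both Wnt3A arrays lay below both controls; Adipoq, Cidec and Lep were under the limit on every array. The summed level of the list was 11.23 and 9.09 on the controls against 7.51 and 6.23 with Wnt3A (log2 of summed signals). Such a sum adds probe sets whose levels are not comparable and is carried by the brightest, here the lipoprotein lipase gene Lpl, which read 11.10 and 8.70 on the controls against 6.54 and 4.92. Without Lpl the sum was 7.69 and 6.99 on the controls against 6.48 and 5.48, and the other 4 tested markers differed by -1.82 to -0.53. Fabp4 (2.26 and 2.66) and Retn (3.16 and 3.25) read higher on Wnt3A replicate 2 than on replicate 1. The 3 lower probe sets of Gstm1 went the other way, as did Lpl, Pparg and Cebpa. Of 9 fibroblast markers, 6 were above the limit and 5 of these were lower without overlap, with Lum, Thy1 and Dpt under the limit on every array. Their summed level was 12.56 and 12.64 on the controls against 12.39 and 11.85 with Wnt3A. Of 12 myoblast markers on the array, 11 were above the limit by their mean; 3 of these were higher without overlap, 2 lower and 6 overlapped. Myod1, a master regulator of the muscle lineage, read 6.84 and 7.11 on the controls against 6.32 and 3.62 with Wnt3A, lowest on the same array as Gstm1. Myog, which drives differentiation, differed by -1.59 without overlap. Myf5, another regulator of the lineage, read 6.57 and 5.98 on the controls against 7.77 and 7.65. The satellite cell gene Pax7 read 2.15 on both Wnt3A arrays and did not reach the limit on the controls. Of 5 tested macrophage markers, 2 were higher without overlap and 2 lower. The counts were 1 and 1 of 2 for endothelial markers, and 0 and 1 of 4 for hepatocyte and epithelial ones. The part of these markers in the Gstm1 values was not tested.

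Gstm2, the other mu class gene of the group, leaned the other way from Gstm1. It read 3.03 and 2.45 on the controls against 3.51 and 2.93 with Wnt3A. Its groups overlapped, because control replicate 1 lay above Wnt3A replicate 2. The means were 2.74 ± 0.41 and 3.22 ± 0.41 (SD, n = 2), a difference of 0.48. The arrays of a group differed by 0.58 in both groups, more than the group means did. Replicate 2 was the lower array in both groups, and taken by replicate number the differences were 0.49 and 0.48. The labels do not say that a number marks a pair. Control replicate 2 was not far above the limit for dim probe sets.

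Gstt1, a theta class transferase that acts on small halogenated compounds, read 3.66 and 2.87 on the controls against 2.78 and 2.68 with Wnt3A. Both Wnt3A arrays lay below both controls, but only by 0.09 at the nearest, and control replicate 1 stood apart. The difference was -0.53, and -0.13 without control replicate 1. Gsto1, an omega class enzyme that reduces rather than conjugates its substrates, was nearly level. Its probe set 1416531_at read 8.70 and 8.62 on the controls against 8.41 and 8.78 with Wnt3A, which differ by -0.07 that was 0.25 after scaling to hybridization controls. Its probe set 1456036_x_at read 8.41 and 8.24 on the controls against 8.47 and 8.58 with Wnt3A, which differ by 0.20. The second had no overlap between groups, with 0.06 between the nearest arrays, and 48.5% of tested probe sets differed at least as much.

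**Figure D2:**
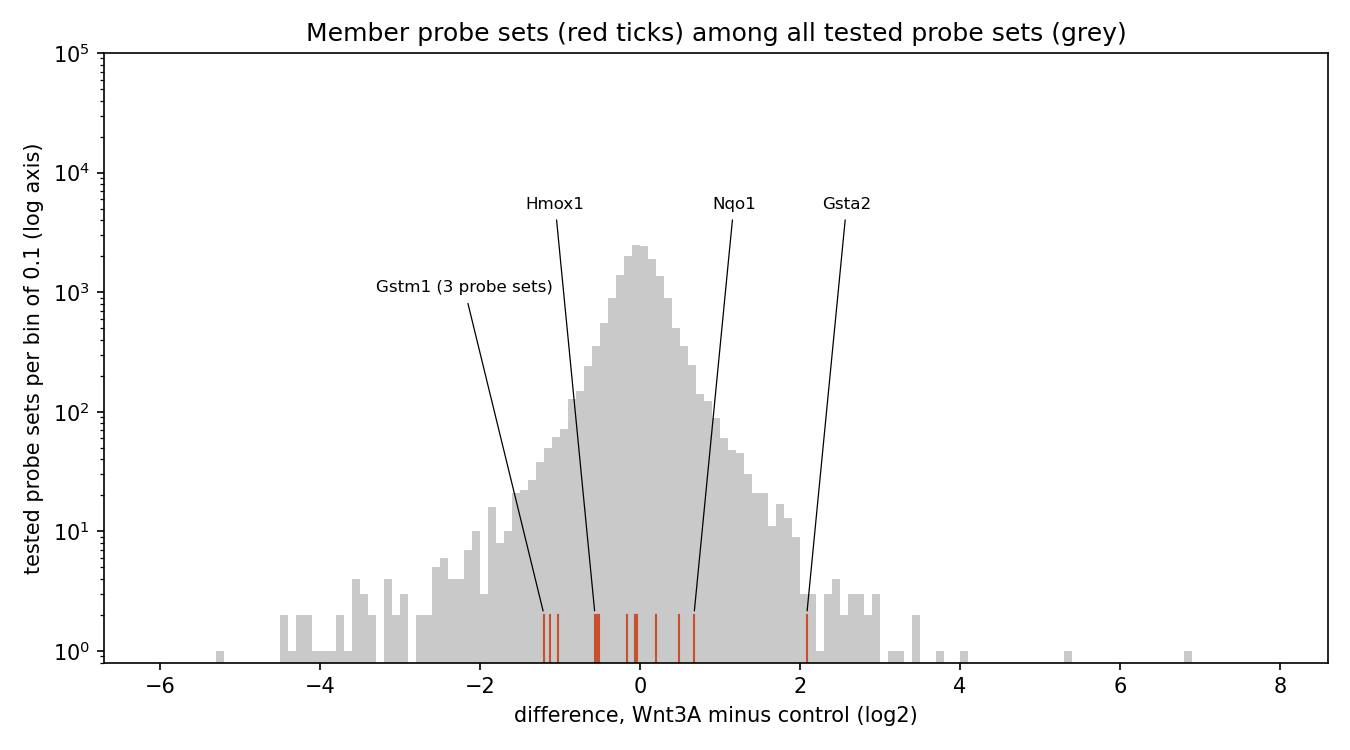
Differences (log2, Wnt3A minus control) of the 15 probe sets of the 10 genes as red ticks, over a histogram of all 16969 tested probe sets in bins of 0.1 with a log axis for counts. Gsta2 at 2.08 lies far out on the higher side, 3 probe sets of Gstm1 lie between -1.20 and -1.03, and the others lie within the broad middle.

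Glutamate-cysteine ligase makes the first and rate-limiting step of glutathione synthesis, with Gclc as the catalytic and Gclm as the modifier subunit. Gclm read 6.76 and 6.69 on the controls against 6.50 and 6.88 with Wnt3A, so the controls lay between the Wnt3A arrays. The difference was -0.04, with means of 6.73 ± 0.04 and 6.69 ± 0.27 (SD, n = 2). Gclc on probe set 1424296_at read 7.49 and 7.31 on the controls against 7.04 and 7.43 with Wnt3A, again with overlap, and differed by -0.16. Both of these differences turned above 0 when arrays were scaled to hybridization controls (0.28 for Gclm and 0.15 for Gclc). On probe set 1455959_s_at Gclc read 7.08 and 6.97 on the controls against 6.35 and 6.66 with Wnt3A. There both Wnt3A arrays lay below both controls, by 0.31 at the nearest, and the difference was -0.52; it was -0.20 after scaling to hybridization controls. The suffix s marks probe sets that match more than 1 transcript, and the probe sets of Gclc agree in direction but not in whether the groups overlap.

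Nqo1, the quinone reductase that serves as a standard readout of NRF2, read 6.65 and 8.52 on the controls against 8.14 and 8.37 with Wnt3A. Control replicate 1 was low, and the other control array was the highest of the 4, above both Wnt3A arrays. The means were 7.58 ± 1.32 and 8.26 ± 0.16 (SD, n = 2), a difference of 0.67 that was smaller than the gap of 1.87 between the control arrays. A control gap that wide was seen in 0.796% of tested probe sets. Without control replicate 1 the difference was -0.26, and without control replicate 2 it was 1.61, so 1 array sets its direction.

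Hmox1, which opens the heme ring to biliverdin, carbon monoxide and iron, showed the same kind of pattern in the other group. It read 8.38 and 8.25 on the controls against 7.05 and 8.47 with Wnt3A. Wnt3A replicate 1 was low and Wnt3A replicate 2 was the highest of the 4. The means were 8.32 ± 0.09 and 7.76 ± 1.01 (SD, n = 2), a difference of -0.56 against a gap of 1.42 between the Wnt3A arrays. Without Wnt3A replicate 1 the difference was 0.15, and without Wnt3A replicate 2 it was -1.27.

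Nqo1 and Hmox1 were not low on the same array: Nqo1 was low on control replicate 1 and Hmox1 on Wnt3A replicate 1. Array controls also differed between arrays, and were lowest on other arrays than these. The mean of the 18S ribosomal RNA control probe sets was 10.42 and 7.21 on the controls against 10.46 and 9.40 with Wnt3A, lowest on control replicate 2. That of the hybridization controls was 7.42 and 7.57 on the controls against 7.35 and 7.00 with Wnt3A, lowest on Wnt3A replicate 2. Signal near the 3′ end of Gapdh exceeded that near the 5′ end by 0.09 to 0.31 over the 4 arrays, and for actin the excess was 0.70 to 0.93. The part of these in the Nqo1 and Hmox1 values was not tested. The arrays had median signals of 4.15 to 4.22, and correlations of pairs of arrays across tested probe sets were between 0.947 and 0.983. They were 0.977 between the controls and 0.962 between the Wnt3A arrays. Between the groups they were 0.983 for the arrays numbered 1 and 0.964 for those numbered 2. Control replicate 2 with Wnt3A replicate 1 gave 0.970, and control replicate 1 with Wnt3A replicate 2 gave 0.947.

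**Figure D3:**
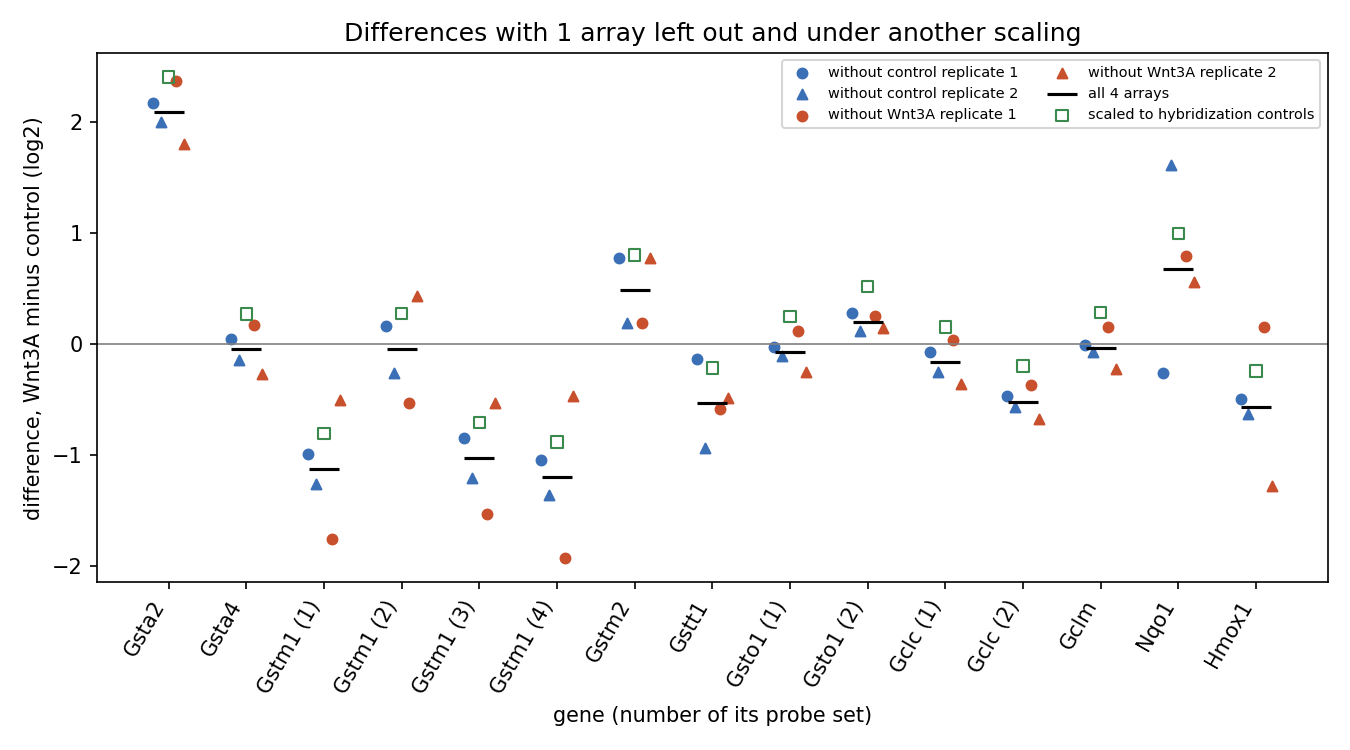
Difference (log2, Wnt3A minus control) of each probe set with all 4 arrays (black bars), with each array left out in turn (filled symbols) and with arrays scaled to hybridization controls (open squares). Gsta2 stays between 1.80 and 2.40, whereas Nqo1 runs from -0.26 to 1.61 and Hmox1 from -1.27 to 0.15.

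Patterns over the 4 arrays were set against those of all tested and named probe sets, after each was centred on its mean, by the root mean square distance. Nearest to Gsta2 were Alpl, the gene of alkaline phosphatase (distance 0.15), Axin2, a feedback scaffold of Wnt signalling (0.23), Sgms1, a sphingomyelin synthase gene (0.26), Pfn2, an actin-binding profilin gene (0.27), and the ligand gene Wnt11 (0.27). Alpl was under the limit for dim probe sets on both controls (1.80 and 1.61) and read 3.15 and 3.88 with Wnt3A, so its rank rests in part on signals that are not above the limit. Nearest to Gstm1 on 1448330_at were Gas1, a growth arrest gene (0.02), Spon2 (0.05), the cathepsin gene Ctsf (0.07), Morc4 (0.08) and the lactate dehydrogenase gene Ldhb (0.09). Gas1 read 11.77 and 11.44 on the controls against 11.15 and 9.71 with Wnt3A. With only 4 arrays many genes come close to any pattern.

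The other genes of these pathways were read at 1 probe set per gene, that of highest mean, over 9685 tested genes. In limma, 0 of the 9685 passed an adjusted p of 0.05, which is 0.00% of them; at an unadjusted p under 0.05 there were 222 higher and 289 lower, 2.29% and 2.98%. Over all probe sets 0 of 16969 passed, and 839 had an unadjusted p under 0.05, 4.94% of them. In this fit, which has no replicate block, no member of any list passed in either direction; with arrays scaled to hybridization controls Axin2 and Nkd2 passed (adjusted p of 0.0210 and 0.0202 in limma) and no other member of the 8 lists did. Counts of genes whose groups do not overlap are given beside their share over all tested genes, 14.8% higher and 19.6% lower. As the lists were chosen with earlier results of these data known, nothing is read from their counts beside these shares. The exposure to the ligand was read from Axin2 and Nkd2, both induced by β-catenin. Axin2 read 3.25 and 3.21 on the controls against 5.13 and 6.14 with Wnt3A, and Nkd2 read 3.06 and 2.66 on the controls against 6.42 and 4.54. Both stood higher on both Wnt3A arrays, with Wnt3A replicate 2 above replicate 1 for Axin2 and below it for Nkd2. Of 6 tested genes of the Wnt readout list, 6 were higher and 0 lower, with 5 and 0 free of overlap. The median was 1.14, and 0.53 without Wnt3A replicate 1. Lef1 read 2.68 and 2.59 on the controls against 5.09 and 3.10. Sp5 differed by 0.06 with overlap, and Nkd1, Rnf43 and Dkk1 were under the limit on all 4 arrays. Notum, whose secreted enzyme inactivates Wnt ligands, read 4.33 and 4.91 on the controls against 5.68 and 5.21, a difference of 0.83 (SE 0.32, adjusted p = 0.977 in limma).

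Regulators of NRF2 were nearly level. Of 11 tested genes, 8 were higher and 3 lower, with 3 and 1 free of overlap, and the median was 0.12, or 0.43 with scaling to hybridization controls. Nfe2l2 itself read 9.12 on both controls and 9.30 and 8.94 with Wnt3A, which differ by 0.0038 with the controls between the Wnt3A arrays. Keap1, the adaptor that sends NRF2 to degradation, read 6.07 and 6.22 on the controls against 6.38 and 6.19 with Wnt3A, and the repressor gene Bach1 read 8.11 and 8.12 on the controls against 8.56 and 7.91. The small MAF gene Maff differed by 0.50 (SE 0.33), the kinase gene Gsk3b by 0.38 (SE 0.28) and Mafg by 0.25 (SE 0.22), with -0.13 on the other probe set of Mafg; each had an adjusted p of 0.977 in limma.

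Other NRF2 target genes went both ways. Of 25 tested, 14 were higher and 11 lower, with 6 and 6 free of overlap, and the median was 0.05. Me1, the cytosolic malic enzyme that yields NADPH, read 7.00 and 7.16 on the controls against 8.29 and 8.98 with Wnt3A, which differ by 1.55 (SE 0.30; 95% interval from 0.78 to 2.32; limma adjusted p = 0.629). Slc7a11, the cystine importer that feeds glutathione synthesis, read 2.40 and 3.33 on the controls against 4.13 and 4.33, a difference of 1.37 (SE 0.36, adjusted p = 0.789 in limma). Idh1, another source of NADPH, read 9.69 and 9.48 on the controls against 8.55 and 7.43 with Wnt3A, which differ by -1.59 (SE 0.41, adjusted p = 0.789 in limma). Each of these 3 had no overlap between groups, though Slc7a11 was not far above the limit for dim probe sets on control replicate 1. Pgd, also NADPH-yielding, read 10.26 and 10.76 on the controls against 9.40 and 9.87 with Wnt3A. It differed by -0.88 without overlap (SE 0.27, adjusted p = 0.897 in limma). NADPH-yielding enzymes of the list thus stood on opposite sides, with Me1 higher and both Idh1 and Pgd lower. Txnrd1, the thioredoxin reductase gene, differed by -0.26 and Srxn1, the sulfiredoxin gene, by -0.34, the latter with overlap.

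Among the other glutathione transferase genes, groups that did not overlap were all on the lower side. Of 12 tested, 2 were higher and 10 lower; 0 were free of overlap on the higher side and 7 on the lower side, 58.3% of the list beside 19.6% of all tested genes. Nothing is read from this share, as the list was chosen with earlier results known. The median was -0.34, and -0.02 when arrays were scaled to hybridization controls, under which the median of all tested probe sets moved to 0.32. Mgst2, a microsomal transferase that also makes leukotriene C4, read 7.72 and 7.08 on the controls against 6.06 and 5.66 with Wnt3A, which differ by -1.54 (SE 0.32; 95% interval from -2.38 to -0.71; limma adjusted p = 0.682). Mgst1, a microsomal enzyme, read 8.64 and 6.45 on the controls against 6.33 and 5.26, with control replicate 1 far above the others. Gstp1, the pi class enzyme, read 10.91 and 11.09 on the controls against 10.71 and 10.35 with Wnt3A, which differ by -0.47. Gstk1 read 2.37 and 2.20 on the controls and was under the limit for dim probe sets on both Wnt3A arrays, and Gstt2 read 2.34 and 2.50 on the controls against 2.10 on Wnt3A replicate 2, with Wnt3A replicate 1 under the limit; no size is given for either. The summed adipocyte markers had the same order of arrays as Mgst1 and Mgst2 (11.23 and 9.09 on the controls against 7.51 and 6.23 with Wnt3A), and their part in the values of this list was not tested.

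The remaining mu class genes differed less than the 3 lower probe sets of Gstm1. Gstm5 read 6.79 and 6.60 on the controls against 6.79 and 6.59 with Wnt3A, which differ by -0.01. Gstm7 differed by -0.09 with overlap. Gstm4 also had overlap, and no size is given for it because control replicate 2 was under the limit for dim probe sets. Gstm3 read 3.27 and 3.22 on the controls against 3.07 and 2.91 with Wnt3A, a difference of -0.25 without overlap and in the same order of arrays as the 3 lower probe sets of Gstm1. Gstm6 was under the limit on all 4 arrays.

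Genes of glutathione synthesis, recycling and use were split. Of 23 tested, 11 were higher and 12 lower, with 5 and 3 free of overlap, and a median of -0.05. Dpep1, a dipeptidase that cleaves the cysteinylglycine left from glutathione, read 4.36 and 4.35 on the controls against 3.28 and 3.13 with Wnt3A, which differ by -1.15 (SE 0.20, adjusted p = 0.615 in limma), and -1.71 on its other probe set. Chac2, which breaks down glutathione inside the cell, read 4.56 and 4.60 on the controls against 5.39 and 6.24, a difference of 1.23 (SE 0.35, adjusted p = 0.842 in limma). Gss, which completes glutathione synthesis, differed by -0.08, and Gsr, which returns the oxidised form, by 0.31, both with overlap.

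Enzymes against superoxide and peroxide, and genes of heme and iron handling, had medians slightly below 0 that turned above 0 when arrays were scaled to their hybridization controls. Of 17 tested superoxide, peroxide and thioredoxin genes, 8 were higher and 9 lower, with 2 and 7 free of overlap; the median of -0.11 was 0.21 with scaling to hybridization controls. Sod2, the mitochondrial superoxide dismutase, differed by -0.58 (SE 0.22) and up to 0.02 on its other probe sets. Prdx4, a peroxiredoxin of the endoplasmic reticulum, differed by -1.01 (SE 0.40) with the narrowest of its 3 probe sets at -0.23. Sod3 read 2.22 and 2.33 on the controls and was under the limit for dim probe sets on both Wnt3A arrays, so no size is given. The other probe set of Sod3 differed by 0.18. Of 15 tested heme and iron genes, 5 were higher and 10 lower, with 2 and 5 free of overlap, and the median of -0.13 was 0.19 with that scaling. Fth1, the ferritin heavy chain, read 12.65 and 12.70 on the controls against 12.36 and 12.27 with Wnt3A, which differ by -0.37 (SE 0.14). Cpox, of heme synthesis, differed by 0.52 (SE 0.25), Blvra, the biliverdin reductase that acts after HMOX1, by 0.48 (SE 0.27) and Hmox2, the constitutive heme oxygenase, by -0.14. All of these had an adjusted p of 0.977 in limma.

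The aryl hydrocarbon receptor list, whose targets include Nqo1, held some of the widest differences. Of 7 tested genes, 5 were higher and 2 lower, with 3 and 0 free of overlap, and the median was 0.63, but -0.05 without control replicate 1. Cyp1a1, the classical target of the receptor, read 2.23 and 4.11 on the controls against 5.23 and 6.79 with Wnt3A, which differ by 2.83 (SE 0.82; 95% interval from 0.70 to 4.97; limma adjusted p = 0.846, and 0.0607 with scaling to hybridization controls). Both Wnt3A arrays were above both controls, though the controls themselves were 1.88 apart. Control replicate 1 was not far above the limit for dim probe sets, so the size of the Cyp1a1 difference rests in part on a low signal. Ahr, the receptor gene, read 5.88 and 6.99 on the controls against 8.24 and 7.69, a difference of 1.53 (SE 0.45, adjusted p = 0.846 in limma), while its other probe set gave 0.04. Tiparp, a feedback inhibitor of the receptor, differed by 0.63 (SE 0.26). Control replicate 1 was the lowest of the 4 arrays for Cyp1a1, Ahr and Tiparp, as it was for Nqo1. Cyp1b1 shared that low control array, at 7.01 beside 7.90 to 8.26 on the other 3, and its groups overlapped. Ahrr was also lowest there, at 4.02, with overlap. Aldh3a1 and Arnt were instead lowest on Wnt3A replicate 2, at 6.27 and 2.59, and Aldh3a1 differed by -0.80 with overlap. The part of the receptor in the Nqo1 values was not tested.

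**Figure D4:**
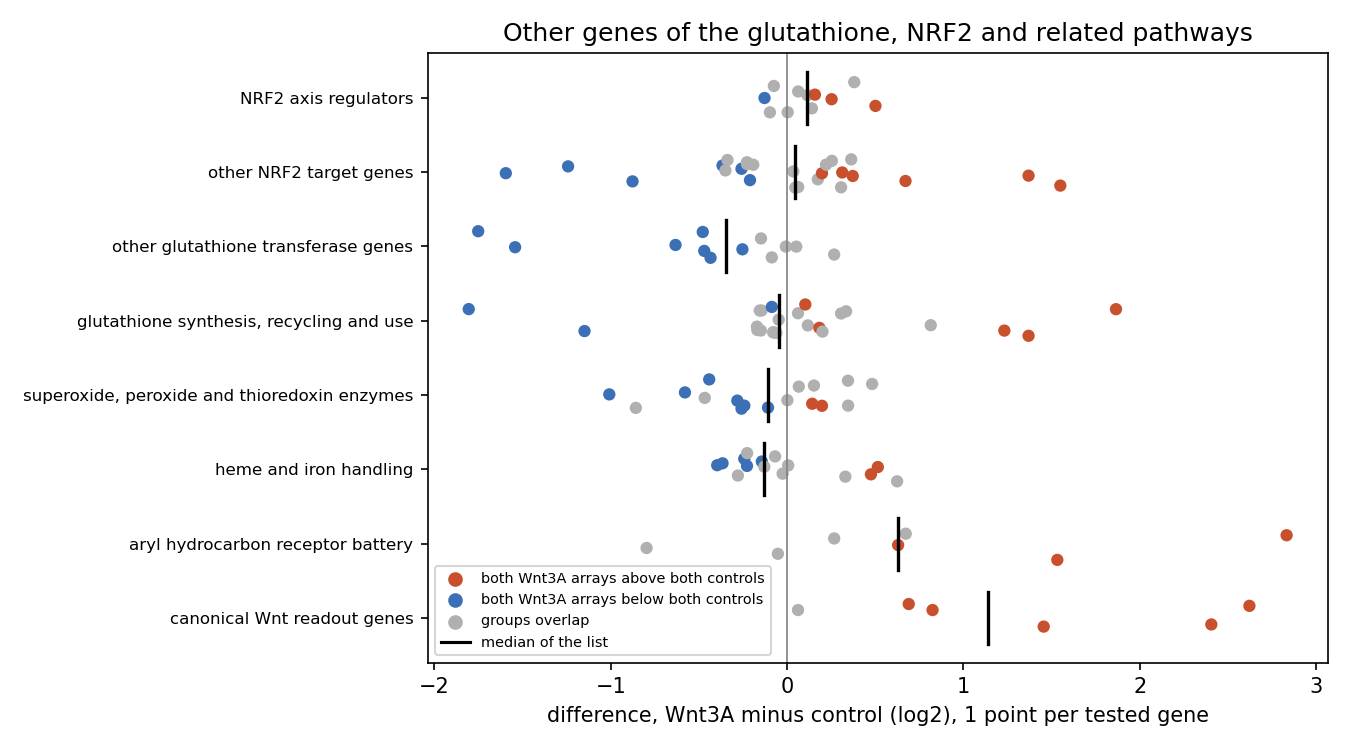
Difference (log2, Wnt3A minus control) of each tested gene in 8 lists of related genes, 1 point per gene, coloured by whether both Wnt3A arrays lay above or below both controls, with a black bar at the median of the list. The medians run from -0.34 for the other glutathione transferases to 1.14 for the canonical Wnt readouts, and the other NRF2 targets spread on both sides of 0.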

How the data were processed

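RNA was isolated with Trizol and 20 micrograms were labelled by the Affymetrix procedure, per the labels' protocols, whose text names Wnt3A for the controls too; groups were therefore taken from the titles. The table the authors deposited has 1 number for each probe set on each array, read here as log2 signals from their range. Per the submitters' processing notes GCOS and PLIER were involved, without version or role. How the values were normalized, centred or filtered is not given in the sources used here, no detection calls were at hand, and nothing was normalized again. Of 22690 probe sets, 64 array controls were left out. Names came from the platform annotation, where 20393 probe sets have 1 symbol, updated by Entrez ID for 20364 of them through RefSeq's GRCm38.p6 annotation; 691 list several genes and were not named, and 1555 outside the controls are not listed.

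The dimmest 25% by the mean of the 4 arrays were left out. Differences were fitted over the remaining 16969 probe sets in R 4.3.3 with limma 3.58.1 (lmFit and eBayes with an intensity trend, group as the only term, two-sided, Benjamini-Hochberg over all of them, threshold 0.05) and the procedure was tested on simulated data. An exact permutation of 2 arrays against 2 cannot give a p below 0.333. The 10 genes and the 8 pathway lists were chosen with earlier results of these data known. From each list the text names the 3 genes of lowest unadjusted p, and other named list genes were chosen for their role after their values were seen. Alternatives were other scalings, other filters, a fit without the trend, the replicate number as a block and leaving out each array. P-values weigh a difference against the spread between these arrays, moderated over all tested probe sets, and the number of arrays limits the precision. They treat the arrays as independent, and the labels do not say whether the cultures were started apart.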

Additional observations from a re-analysis of the deposited data

How the results depend on the processing

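With the replicate number as a block, 83 probe sets passed an adjusted p of 0.05 in limma, and with arrays scaled to their 18 hybridization control probe sets 68 did, in place of 0; quantile normalization, median centring, other filters, no intensity trend and each array left out gave 0. Of the pathway lists, the replicate block called Cyp1a1 (adjusted p = 0.0112 in limma) and Axin2 (0.0450), and the hybridization scaling called Axin2 and Nkd2. The labels do not say that a replicate number marks a pair; deviations from group means correlated at 0.52 between arrays of the same number, and with 2 pairs this does not settle it. The count of probe sets at least 2-fold apart without overlap was 515, with 44.1% of them higher; it was between 565 and 1531 with 1 array left out, where 1 array stands against 2 and the rule is met more easily, and the share that was higher was 78.0% with hybridization scaling. Under it the median over all tested probe sets went from -0.0037 to 0.32, and by as much went each of the 15 probe sets of the 10 genes; those near 0 (Gsta4, 1425626_at of Gstm1, 1416531_at of Gsto1, 1424296_at of Gclc and Gclm) came out above 0. With 1 array left out, 7 of the 15 changed sign at least once (those same 5, Nqo1 and Hmox1), and the other 8, among them Gsta2 and the 3 lower probe sets of Gstm1, kept their sign under each scaling and with each array left out.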
